A study of Rattus norvegicus with 32 samples.

Results

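Epithelial cells hold on to the sheet of matrix beneath them through integrins, paired alpha and beta receptor subunits that bind laminin, collagen or fibronectin outside the cell. In stratified epithelia the integrin of Itga6 and Itgb4 anchors the keratin network to laminin-332 at hemidesmosomes, while integrins that contain Itgb1 connect to actin through talins, kindlins, integrin-linked kinase and parvins. Basal keratinocytes of skin and hair follicle carry hemidesmosomes, and thymic epithelial cells are known to express laminin-binding integrins. The genes described here are the integrin subunits, laminin chains, nidogens, perlecan, hemidesmosome proteins and integrin adaptors whose symbols match a fixed pattern (Itga, Itgb, Lama, Lamb and Lamc with a number, Col17a1, Col7a1, Dst, Plec, Cd151, Nid1, Nid2, Hspg2, the kindlins Fermt1 to Fermt3, talins, Ilk and parvins). The pattern found 36 genes of 14511, with 1 probe set each, among 15316 probe sets that carry exactly 1 gene symbol. They comprised 8 integrin alpha subunits, 8 beta subunits, 9 laminin chains or other matrix proteins, 3 hemidesmosome genes and 8 adaptors. Other genes of the pattern, such as Itga3, Itgav, Lamb1, Hspg2, Nid1 and Dst, were not analysed here.

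The study asked how thymic epithelial cells (TEC) and hair follicle (HF) cells differ before and after transplantation into skin. All cultures came from Sprague-Dawley rats with an act-EGFP transgene, which makes their cells fluoresce green, and all were grown on irradiated 3T3-J2 cells, a mouse fibroblast line used as feeder. The TEC cultures before grafting were PRE16cl11_VII (embryonic day 16, E16), PRP1cl11_VII (postnatal day 1, P1), PRP4mo_bulk and PRP4mo_Cl09 (both from donors of 4 months). After the first transplantation there were Clone_217 and Clone_218 (E16), Clone_57 (P1) and Clone_907 (4 months), and after the second Clone_287 and Clone_347 (E16), Clone_194 (P1) and Clone_354 (4 months). The HF cultures, all labelled P5, were YR219P5_Bulk_V and YR219P5cl7 before grafting and YR219P5_RC and Clone_54 after the first transplantation. Values in each group are given in these orders. Grafted cells were recovered from skin grafts on nude mice and cultured again. The labels do not say what P5 means. It is read here as a donor stage, as P1 is, and since no TEC culture carries it, tissue cannot be told apart from what P5 marks. Of the 16 cultures 11 were clonal and 5 were bulk (PRP4mo_bulk, Clone_907, Clone_354, YR219P5_Bulk_V and YR219P5_RC), and the 2 arrays of a culture were averaged, so n counts cultures. The labels do not say whether cultures of a group came from separate animals, and p-values measure the spread between these cultures.

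Values are log2 signals. The arrays had medians of 5.287 to 5.554, apart from 5.782 on array 1 of YR219P5_RC. Of the 36 genes, 19 had their widest gap between the arrays of a culture in YR219P5_RC, so the main results that use grafted HF cultures are also given without that array. Krt14, the basal keratin, was at 13.1 to 13.3 in the group means, and Tp63, the regulator of stratified epithelia, was at 9.14 to 9.74. Of 9 listed haematopoietic markers 7 had group means under 5 in every group, with Ptprc at 3.28 to 3.62, while Cd68 reached 7.12. Endothelial markers had median levels of 3.88 to 4.13. For a culture, fewer cells of a type and less RNA per cell cannot be told apart.

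Promoter sequence was available for 26 of the 36 genes, in RefSeq's GRCr8 annotation. The GC box, GGGCGG on either strand, a letter pattern known for binding Sp family factors, was found in the 250 bases before the start of 15 of them (57.7%), against 30.5% of 33465 promoters. The 33465 are all distinct promoter entries, not only those of genes with a tested probe set, so the shares compare unlike sets. The median number of CpG dinucleotides per window was 10, against 5 over all promoters. The AP-1 pattern TGANTCA was found in 1 of the 26 (3.85% against 6.34%), TATAAA in 3 (11.5% against 12.9%) and CACGTG in 0 (0.0% against 5.59%). A match describes letters only. The windows of Cd151, the gene that passed the test, and of Itgb8 and Parvb, which varied most between cultures, are shown with GC boxes in capitals, each ending at the base before the start and written 5′ to 3′ on the gene's strand. They lie at chr1:205994050-205994299 (plus strand) for Cd151, chr6:146351246-146351495 (minus strand) for Itgb8 and chr7:117239988-117240237 (plus strand) for Parvb.
Cd151 promoter: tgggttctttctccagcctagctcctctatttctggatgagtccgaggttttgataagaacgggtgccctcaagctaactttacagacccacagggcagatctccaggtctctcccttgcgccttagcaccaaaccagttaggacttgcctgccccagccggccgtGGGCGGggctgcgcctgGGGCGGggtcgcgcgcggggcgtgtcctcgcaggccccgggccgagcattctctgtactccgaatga
Itgb8 promoter: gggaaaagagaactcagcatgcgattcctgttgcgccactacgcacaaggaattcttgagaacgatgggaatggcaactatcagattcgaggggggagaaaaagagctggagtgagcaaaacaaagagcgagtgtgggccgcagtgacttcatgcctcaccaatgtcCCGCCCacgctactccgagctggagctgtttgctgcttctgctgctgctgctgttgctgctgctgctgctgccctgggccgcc
Parvb promoter: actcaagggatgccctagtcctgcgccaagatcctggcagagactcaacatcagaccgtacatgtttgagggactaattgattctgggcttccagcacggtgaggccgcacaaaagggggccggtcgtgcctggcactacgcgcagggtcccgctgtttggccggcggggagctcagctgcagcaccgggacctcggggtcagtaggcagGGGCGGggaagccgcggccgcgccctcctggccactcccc
The Cd151 window held 2 GC boxes and 17 CpG, the Itgb8 window 1 and 11, and the Parvb window 1 and 18.

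The hemidesmosome subunits analysed here and Itgb1 gave strong signals in TEC and HF cultures alike. Itgb1, the beta subunit shared by many receptors, ranged only from 11.71 to 12.18 over the 16 cultures. Itga6 ranged from 11.01 to 11.97 and Itgb4 from 10.51 to 11.91. Col17a1, the transmembrane collagen of the hemidesmosome, lay between 9.58 and 11.06, and Plec, which encodes the plakin that ties the integrin to keratin, between 8.88 and 9.79. The laminin-332 chains Lama3 and Lamb3 ranged from 7.48 to 8.98 and from 10.34 to 11.22. Itga2, a collagen receptor subunit, ranged from 7.65 to 10.09, and Itga1 from 5.40 to 7.22. At the other end 9 genes had a mean under 5 (25%, against 34.6% of all probe sets). They were Itga4 and Itgb2, integrin subunits of blood cells, the muscle subunit Itga7, the collagen receptor subunits Itga10 and Itga11, Itgb3, Lama1, Lamc3 and the blood cell parvin Parvg. Signals near this level were not shown to lie above background.

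**Figure D1:**
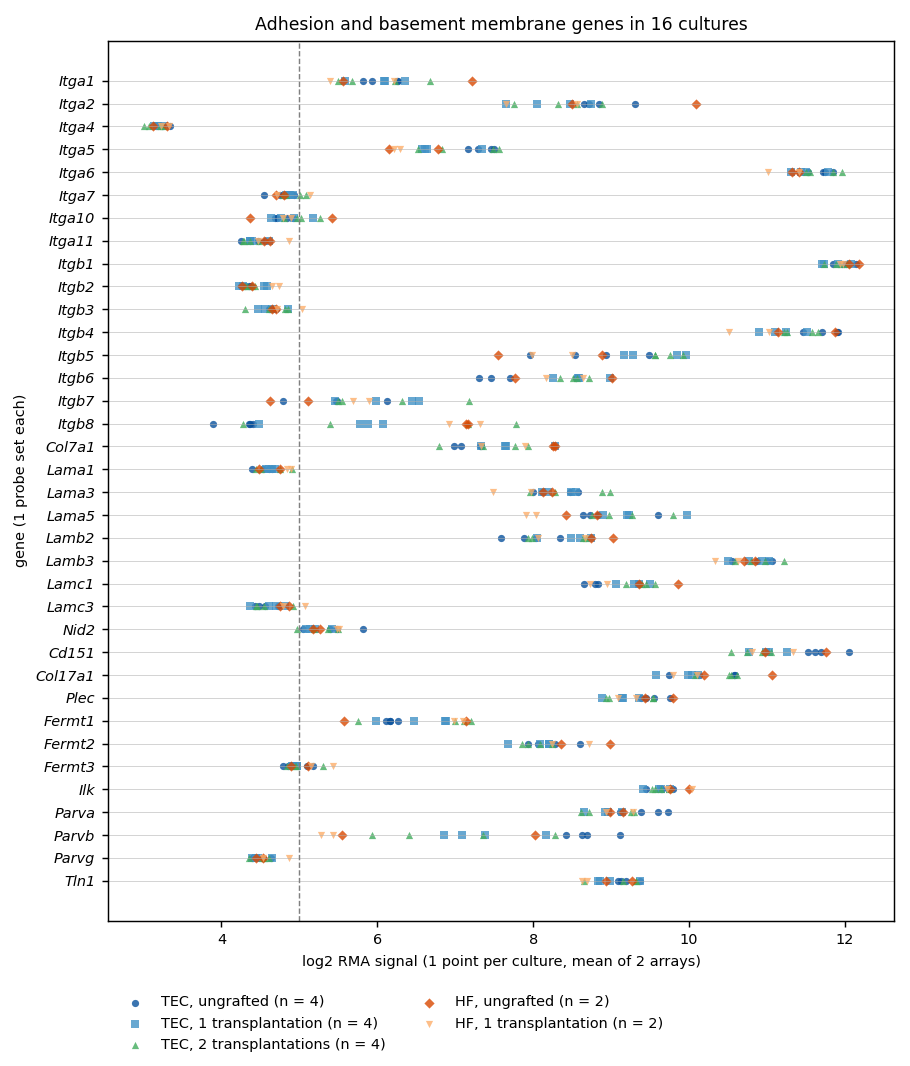
Log2 signal (x axis) of the 36 genes (y axis, grouped as alpha subunits, beta subunits, matrix, hemidesmosome and adaptors), with 1 point per culture coloured and shaped by group and a dashed line at 5. Itgb8 and Parvb spread most widely, over 3.90 and 3.84 log2 units, while Itgb1 spans 0.47.

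The genes differed in how far they varied. The range over the 16 cultures exceeded 1 for 20 of the 36 genes (55.6%, against 31.5% of all probe sets), and for 19 of the 27 genes with a mean of at least 5 (70.4% against 43.6%). The widest ranges were those of Itgb8 (3.90), Parvb (3.84), Itgb7 (2.56), Itga2 (2.44), Itgb5 (2.40) and Lama5 (2.06). Median gaps between the arrays of a culture were 0.03 (Itga6) to 0.27 (Itgb2).

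TEC and HF cultures before grafting did not differ past the threshold in any of the 36 genes, while limma called 238 of 15316 probe sets (1.55%) in this comparison at an adjusted p under 0.05. The count over all probe sets was 18 without YR219P5_Bulk_V, 375 without YR219P5cl7, 113 to 154 without any 1 of the 4 ungrafted TEC cultures and 4 with clonal cultures alone. At an unadjusted p under 0.05 there were 6 genes (16.7%, against 13.5% of all probe sets), with Itga5 and Parvb higher and Itgb8, Col7a1, Lamc1 and Lamb2 lower in TEC cultures. Values did not overlap between the groups for 8 genes, against 25.8% of all probe sets. Of the 8, 3 were higher (12.8% of all) and 5 lower (13.1%) in TEC cultures. The median difference over the 36 genes was -0.02, and over all probe sets -0.01.

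Itgb8, a beta subunit that binds latent TGF-beta, had the largest measured difference between the tissues among the 36 genes. Its level was 4.35, 4.40, 4.37 and 3.89 in TEC cultures before grafting and 7.16 and 7.13 in HF cultures. The HF values lay far above all TEC values. The log2 difference was -2.90 ± 0.73 (SE), with an adjusted p of 0.0673 from limma. The TEC signals lay under 5 and were not shown to be above background, so the difference is one of measured signals and no fold is given.

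A further 3 matrix genes were also lower in TEC than in HF cultures before grafting without passing the threshold. Col7a1, which encodes the collagen of the anchoring fibrils below the basement membrane, was at 7.34, 7.32, 7.07 and 6.98 in TEC and at 8.28 and 8.25 in HF cultures (difference -1.09 ± 0.29, adjusted p = 0.0885). Lamc1, the gamma chain of most laminins, was at 9.35, 8.79, 8.83 and 8.65 against 9.86 and 9.36 (-0.70 ± 0.19, adjusted p = 0.0922). PRE16cl11_VII came close to the lower HF value, and the Lamc1 difference was -0.45 without YR219P5_Bulk_V and -0.96 without YR219P5cl7. Lamb2, a laminin beta chain, was at 8.35, 8.03, 7.59 and 7.88 against 9.02 and 8.75 (-0.92 ± 0.27, adjusted p = 0.122).

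Itga5, the alpha subunit of the fibronectin receptor, and Parvb, a parvin that links integrin-linked kinase to actin, lay on the other side. Itga5 was at 7.16, 7.30, 7.46 and 7.50 in TEC and at 6.78 and 6.15 in HF cultures (0.89 ± 0.29, adjusted p = 0.166; 0.58 without YR219P5cl7). Parvb was at 8.69, 8.62, 8.42 and 9.11 in TEC cultures, against 8.02 in YR219P5_Bulk_V and 5.54 in YR219P5cl7. The difference was 1.93 ± 0.65 (adjusted p = 0.181), and it was 3.17 without YR219P5_Bulk_V and 0.69 without YR219P5cl7, so it rests on the clonal HF culture. The laminin-332 chains differed by 0.10 ± 0.27 (Lama3; 95% interval -0.47 to 0.67) and 0.10 ± 0.19 (Lamb3; -0.31 to 0.51).

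**Figure D2:**
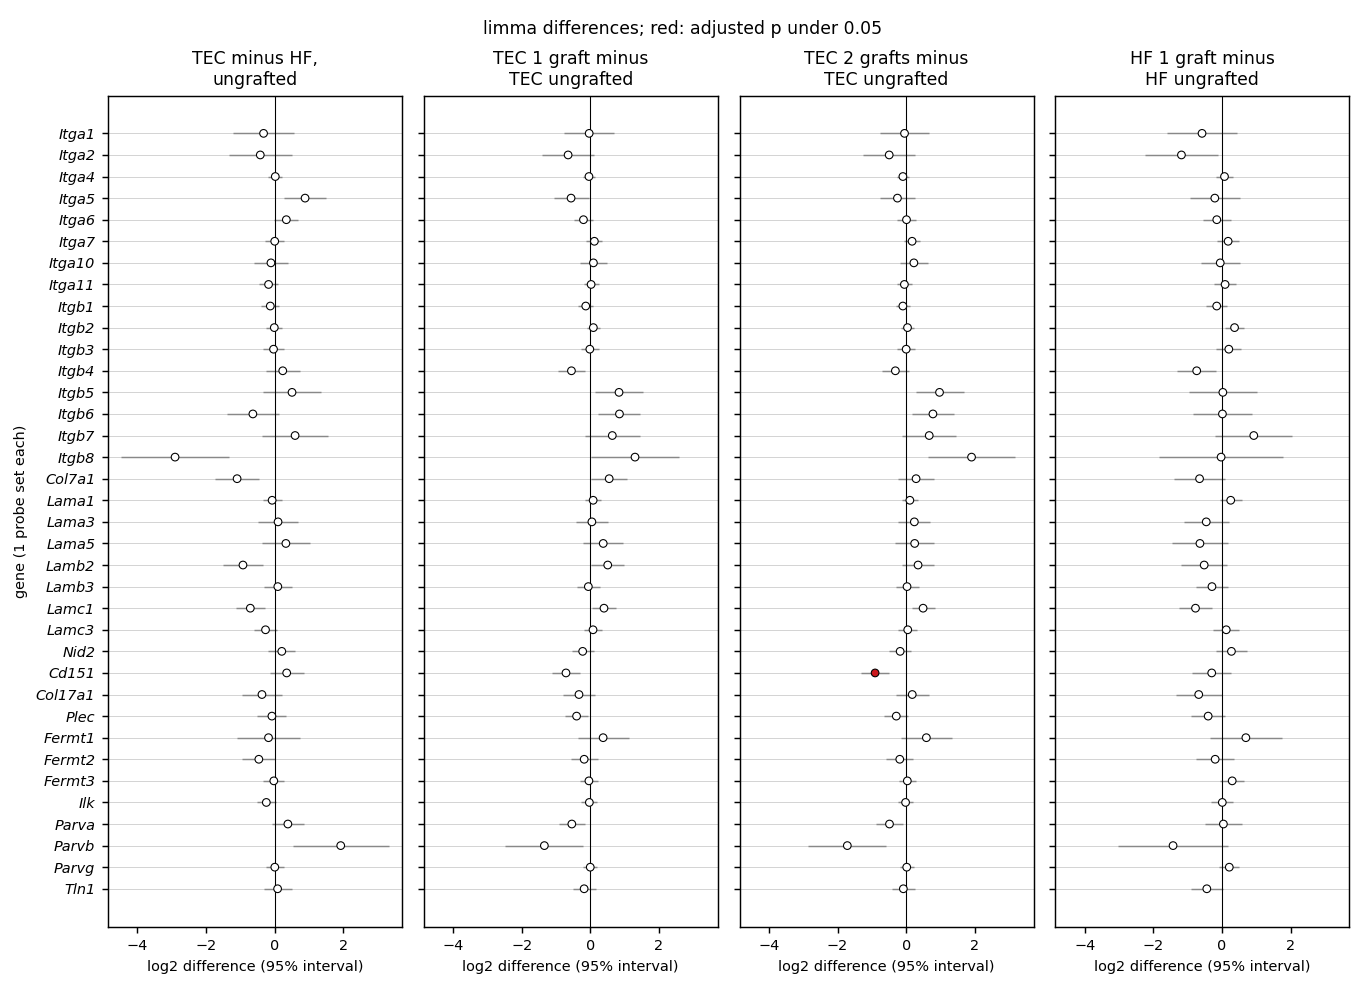
Log2 differences (x axis, with 95% intervals) of the 36 genes (y axis) in 4 comparisons, from limma. The red point, adjusted p under 0.05, is Cd151 at -0.91 in TEC cultures after 2 transplantations against TEC cultures before grafting.

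Transplanted TEC cultures had less Cd151, the tetraspanin that partners laminin-binding integrins and belongs to the hemidesmosome. Its level was 11.53, 11.70, 12.05 and 11.61 before grafting, 10.77, 11.03, 11.26 and 10.99 after the first transplantation, and 10.75, 10.53, 10.94 and 11.05 after the second. All 8 grafted cultures lay below all 4 ungrafted ones. The same held for Parvb, which did not pass the threshold, and the share of all probe sets that separate in this way is not given here. After the second transplantation Cd151 fell by 0.91 on the log2 scale (SE 0.19; 1.87-fold; limma adjusted p = 0.0198), and it was the only one of the 36 genes among the 591 probe sets called (3.86%, with 1.93% lower). After the first transplantation the difference was -0.71 ± 0.19 (adjusted p = 0.111), with 0 of the 36 genes and 0.516% of all probe sets called. The groups after 1 and 2 transplantations differed by -0.20 ± 0.19. With the 8 grafted cultures pooled, a comparison added after the data were seen, Cd151 fell by 0.81 (SE 0.16; adjusted p = 0.0148), again as the only member of 36 called, against 4.83% of all probe sets, with 2.44% lower. The 591 probe sets called after the second transplantation became 149 without PRP4mo_bulk, 150 without PRP4mo_Cl09, 251 without Clone_347, 279 without Clone_194, 303 without Clone_354, 334 without PRP1cl11_VII and 35 with clonal cultures alone. Leaving out each culture in turn gave 8 (without Clone_217) to 148 (without Clone_57) after the first transplantation, against 79 with all cultures, and 170 (without PRP4mo_bulk) to 1128 (without Clone_57) in the pooled comparison, against 740 with all and 74 with clonal cultures alone.

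The size of the Cd151 decrease after the second transplantation held between -0.98 and -0.80 when each culture was left out in turn, but its adjusted p crossed the threshold without PRP4mo_bulk (0.0661), without PRP4mo_Cl09 (0.0523) and without Clone_347 (0.0598), and with clonal cultures alone (0.0714). With donor stage as a term the difference was -0.84 (adjusted p = 0.0261). HF cultures held 11.76 and 10.98 before and 11.33 and 10.80 after grafting, so their values spanned both TEC levels. Over the 12 of 12 listed fibroblast or feeder markers measured, the summed linear signal in TEC cultures was 1939.1 to 3464.9 before grafting. It was 1055.6 to 1887.9 after the first and 703.5 to 2094.3 after the second transplantation. Of the 12 markers 2 were called after the second transplantation, where 3.86% of all probe sets were called. These were S100a4 and Twist1, which fell by 1.70 and 1.21 (adjusted p = 0.0134 and 0.0177). Vim, which encodes the filament protein vimentin, had means of 10.43, 9.51 and 8.69 in the 3 states. The surface protein gene Thy1 was at 5.63, 4.81 and 4.74. The collagen genes Col3a1, Col1a2 and Col1a1 were at 6.06, 5.80 and 5.64, at 6.99, 6.62 and 6.61, and at 6.95, 6.74 and 6.94, and Lum at 2.58, 2.62 and 2.59. Dcn was at 4.08, 3.82 and 3.91 and Fbn1 at 4.56, 4.43 and 4.40. Pdgfra was at 4.95, 4.75 and 4.83 and Pdgfrb at 4.55, 4.61 and 4.59. Cd68, a macrophage marker, had means of 5.80, 7.12 and 6.79, higher after grafting, and the summed signal of the haematopoietic markers was 186.3 to 263.7, 192.4 to 390.5 and 193.4 to 600.9. Thymic and basal epithelial markers were also called after the second transplantation. Lower were 1 of 2 Krt8 probe sets (-2.09, adjusted p = 0.0482) and Pax1 (-1.30, adjusted p = 0.048), and Pkp1 was higher (0.56, adjusted p = 0.045). The other Krt8 probe set was not called, but its mean also fell, from 11.24 before grafting to 9.01 after the second transplantation. The part of these markers in the Cd151 result was not tested.

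**Figure D3:**
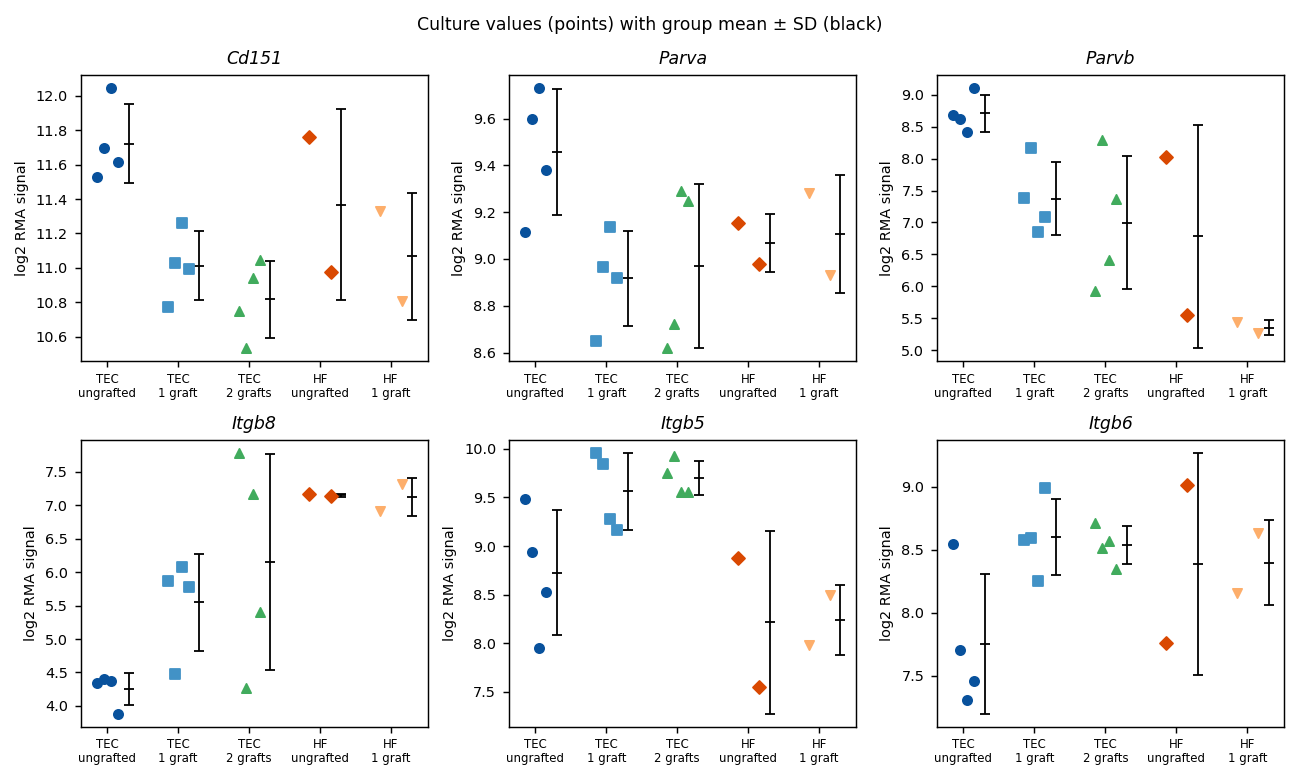
Log2 signal (y axis) of 6 genes by group (x axis), with points for cultures and black bars for the group mean ± SD. The 8 grafted TEC cultures lie at or below 11.26 for Cd151, under all ungrafted TEC cultures, while Itgb8 and Parvb spread over several log2 units after grafting.

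Beside Cd151, further genes differed only before adjustment. After the first transplantation 12 had an unadjusted p under 0.05 (33.3%, against 14.8% of all probe sets). They were Itgb5, Itgb6, Itgb8, Lamb2, Lamc1 and Col7a1 higher, and Cd151, Itga5, Itgb4, Parva, Parvb and Plec lower. In the pooled comparison 10 had such a p (27.8% against 21%). After the second transplantation there were 7 (19.4% against 19.6%), with Itgb5, Itgb6, Itgb8 and Lamc1 higher and Cd151, Parva and Parvb lower. These 2 comparisons share the ungrafted cultures. Values did not overlap for 4 genes after the first (7.95% of all probe sets) and for 3 after the second (11.9%).

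Itgb6 and Itgb5, beta subunits known to pair with the alpha V subunit, had positive differences after grafting that did not pass the threshold. Of the others known to do so, Itgb8 is given next, Itgb1 differed by -0.13 and -0.10 after the first and second transplantation, and Itgb3, with a mean under 5, by -0.02 and -0.00. Itgb6, an epithelial subunit that binds latent TGF-beta, was at 8.55, 7.70, 7.31 and 7.46 before grafting, 8.58, 8.59, 8.25 and 8.99 after the first and 8.71, 8.51, 8.57 and 8.35 after the second transplantation. Grafted values were tightly packed, and of the ungrafted cultures only PRE16cl11_VII reached them. The differences were 0.85 ± 0.28 (adjusted p = 0.191) and 0.78 ± 0.28 (adjusted p = 0.141). Itgb5, a subunit of a vitronectin receptor, was at 9.48, 8.94, 7.95 and 8.53, then 9.96, 9.84, 9.28 and 9.16, then 9.75, 9.92, 9.56 and 9.56. The second group lay wholly above the ungrafted one, with a difference of 0.97 ± 0.33 (adjusted p = 0.112), and after the first transplantation it was 0.84 ± 0.33 (adjusted p = 0.254). For both genes the 2 lowest ungrafted values came from the 4-month donors. That age made up 2 of the 4 ungrafted cultures and 1 of 4 in each grafted group.

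Itgb8 was uneven among grafted TEC cultures. It was at 5.88, 4.48, 6.08 and 5.78 after the first transplantation and at 7.78, 4.27, 7.16 and 5.40 after the second. Clone_287 and Clone_194 stood within or above the HF values of 6.92 to 7.32, whereas Clone_218 and Clone_347 lay close to ungrafted TEC cultures. The differences from ungrafted TEC cultures were 1.30 ± 0.60 (adjusted p = 0.326) and 1.90 ± 0.60 (adjusted p = 0.0895), against ungrafted signals under 5 that were not shown to be above background.

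Parvb ran the other way in the same cultures. Its level was 7.38, 8.16, 6.86 and 7.08 after the first transplantation and 5.93, 8.28, 6.41 and 7.36 after the second, all under the 8.42 to 9.11 of ungrafted TEC cultures. Clone_218 and Clone_347 again lay nearest the ungrafted cultures. The differences were -1.34 ± 0.53 (adjusted p = 0.257) and -1.72 ± 0.53 (adjusted p = 0.0855). Itga5 was at 6.61, 7.35, 6.64 and 6.57 after the first and at 6.52, 7.49, 6.83 and 7.56 after the second transplantation. Here Clone_218, Clone_347 and Clone_354 had the values of ungrafted cultures. These cultures were picked out after their values were seen, and their number gives no test. The related parvin Parva was at 9.11, 9.60, 9.73 and 9.38 before grafting, 8.65, 8.96, 9.14 and 8.92 after the first and 8.62, 8.72, 9.29 and 9.25 after the second transplantation (-0.54 ± 0.18 and -0.49 ± 0.18, adjusted p = 0.183 and 0.14).

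Hemidesmosome components other than Cd151 did not pass the threshold in TEC cultures. Itgb4 was at 11.70, 11.46, 11.91 and 11.89 before grafting, 11.24, 11.10, 10.90 and 11.52 after the first and 11.22, 11.58, 11.25 and 11.65 after the second transplantation. Its differences from ungrafted cultures were -0.55 ± 0.19 (adjusted p = 0.195) and -0.32 ± 0.19 (adjusted p = 0.392). Plec was at 9.39, 9.44, 9.56 and 9.76, then 8.88, 9.14, 9.36 and 9.16, then 8.93, 8.97, 9.54 and 9.54, lower by its point estimates in both grafted groups (-0.40 ± 0.16 and -0.29 ± 0.16). Col17a1 was at 9.74, 10.13, 10.59 and 10.58, then 10.12, 9.58, 9.98 and 10.03, then 10.61, 10.07, 10.54 and 10.52. The last 2 states differed by 0.51 ± 0.22, which was the only unadjusted p under 0.05 among the 36 genes in that comparison (adjusted p = 1), where limma called 0 probe sets (0%) and 3.47% had such a p. Values overlapped for each of the 36 genes, as they did for all but 1.4% of probe sets. By p, Itga6 (0.21 ± 0.13) and Itga5 (0.31 ± 0.24) came next.

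Several adhesion genes kept within narrow bounds after grafting. For Itgb1 the differences of both grafted TEC groups from ungrafted cultures had 95% intervals of -0.35 to 0.08 and -0.31 to 0.12. Ilk, which encodes integrin-linked kinase, had intervals of -0.26 to 0.20 and -0.25 to 0.21. Itga6 had intervals of -0.49 to 0.09 and -0.28 to 0.30, and Lamb3 of -0.39 to 0.28 and -0.31 to 0.36. Itga2, the collagen receptor subunit, had wider ones of -1.40 to 0.11 and -1.25 to 0.26. Fermt1, the kindlin of epithelia, was at 6.16, 6.26, 6.17 and 6.11 before grafting, 5.98, 6.47, 6.87 and 6.88 after the first and 6.99, 5.75, 7.12 and 7.20 after the second transplantation (0.37 ± 0.35 and 0.59 ± 0.35).

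In HF cultures, after against before grafting, limma called none of the 36 genes and none of all probe sets (0%), with 2 cultures in each group. Without YR219P5cl7 it called 260 probe sets, 0 of them members. Unadjusted p was under 0.05 for 5 genes (13.9%, against 8.84% of all probe sets). Values did not overlap for 18 genes, 6 higher and 12 lower after grafting, where 41.4% of all probe sets did not overlap, 30.2% higher and 11.1% lower. The 12 lower genes were Itgb4, Col17a1, Plec, Itgb1, Lama3, Lamb3, Lama5, Lamb2, Lamc1, Col7a1, Parvb and Tln1. The 6 higher ones were Fermt3, Itgb2, Itgb3, Itgb7, Lama1 and Nid2, of which Itgb2, Itgb3 and Lama1 had means under 5. These counts and shares include array 1 of YR219P5_RC and are not given without it. The median difference was -0.10 over the 36 genes and 0.10 over all probe sets.

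Lamc1 had the smallest p in HF cultures: it was at 9.86 and 9.36 before and at 8.73 and 8.94 after grafting (-0.77 ± 0.22, adjusted p = 0.562; -0.82 without array 1 of YR219P5_RC). Itgb4 was at 11.87 and 11.14 before and at 10.51 and 11.02 after (-0.74 ± 0.27; -0.79 without that array). This difference was -0.37 without YR219P5_Bulk_V and -0.48 without YR219P5_RC. Itgb2, near background, was at 4.26 and 4.40 and then at 4.74 and 4.65 (0.36 ± 0.12; 0.21 without that array, over 1.5 times smaller). Itga2 was at 10.09 and 8.50 and then at 7.65 and 8.57. Its difference of -1.18 ± 0.50 rests on the bulk cultures: it was -0.39 without YR219P5_Bulk_V, -0.72 without YR219P5_RC, -1.98 without YR219P5cl7 and 0.0697 with clonal cultures alone.

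Lamc1, Lamb2, Lama5, Lama3 and Col7a1 had point estimates of opposite sign in the tissues after the first transplantation, none of them past the threshold. These were higher in TEC and lower in HF cultures. For Lama3 the TEC means were nearly equal, at 8.29 before and 8.33 after grafting, against 8.19 and 7.73 in HF cultures. Nid2 went the other way, with means of 5.43 before and 5.21 after grafting in TEC cultures and 5.22 and 5.49 in HF cultures. Lamb3 was lower (-0.06 and -0.29) and Lama1 (0.08 and 0.25) and Lamc3 (0.08 and 0.12) were higher in TEC and HF cultures alike by their point estimates. Lamc1 was at 9.50, 9.36, 9.30 and 9.06 in TEC cultures after grafting, 0.40 ± 0.16 above ungrafted ones, whereas in HF cultures it was lower by 0.77 (log2 difference -0.77). The difference of these differences was 1.17 ± 0.27 (adjusted p = 0.731; 1.22 without array 1 of YR219P5_RC). Col7a1 was at 7.64, 7.33, 7.65 and 8.28 in these TEC cultures and at 7.33 and 7.89 in grafted HF cultures (1.20 ± 0.42, adjusted p = 0.827; 1.22 without that array). Lamb2 was at 8.61, 8.05, 8.48 and 8.74 and at 8.06 and 8.66 (1.03 ± 0.38, adjusted p = 0.827; 1.10 without it). With Lama5 these were the 4 genes with an unadjusted p under 0.05 (11.1%, against 5.65% of all probe sets), and limma called 0 of the 36 and 0% of all probe sets. The ungrafted cultures of both tissues also enter the earlier comparison of TEC with HF cultures, where Lamc1, Col7a1 and Lamb2 had their differences.

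**Figure D4:**
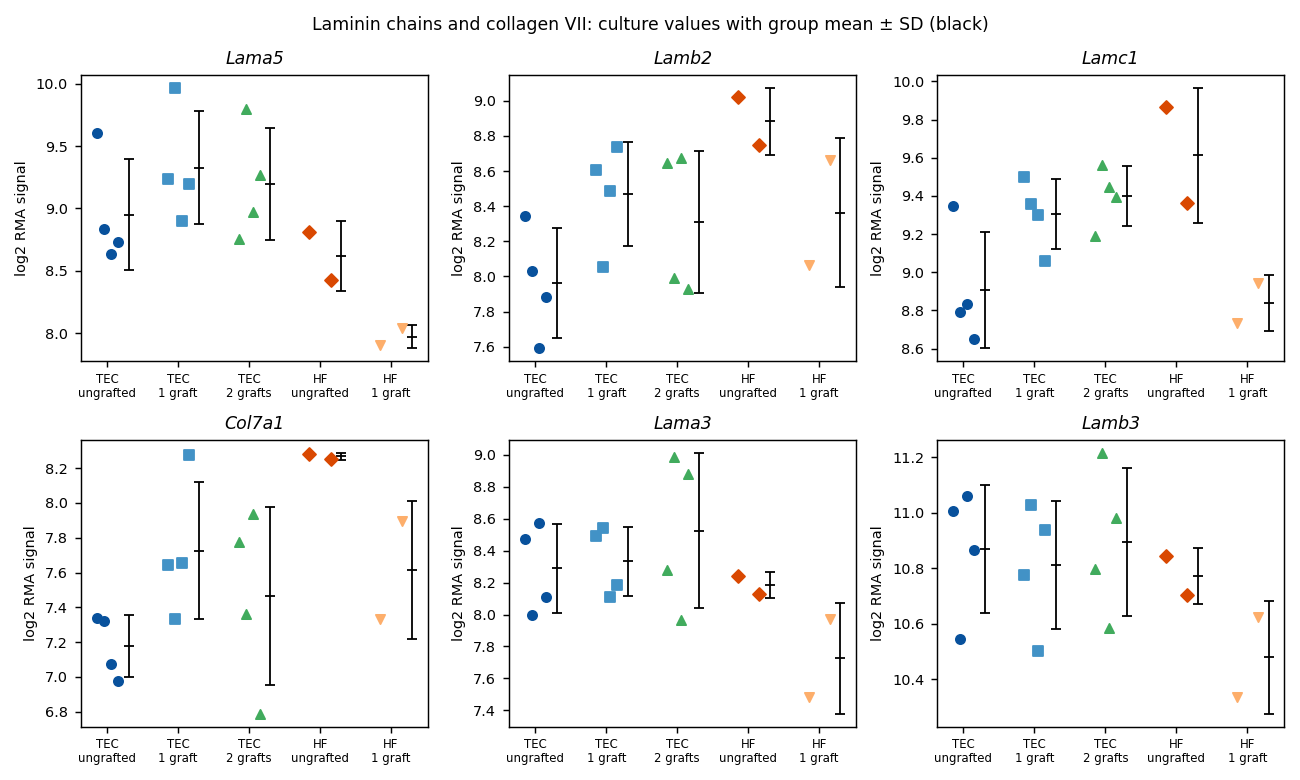
Log2 signal (y axis) of 5 laminin chains and Col7a1 by group (x axis), with points for cultures and black bars for the group mean ± SD. Lama5 lies at 7.91 and 8.04 in the grafted HF cultures, under all 12 TEC cultures. Lamc1 lies at 9.86 and 9.36 in ungrafted HF cultures, the latter within the range of TEC cultures, and at 8.73 and 8.94 in grafted ones.

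Grafted TEC and grafted HF cultures differed most by p in Lama5, the alpha chain of laminin-511. It was at 9.61, 8.84, 8.63 and 8.73 in ungrafted TEC cultures, 9.24, 9.97, 8.90 and 9.20 after the first, 8.76, 9.80, 8.97 and 9.27 after the second transplantation, 8.81 and 8.42 in ungrafted and 7.91 and 8.04 in grafted HF cultures. The grafted HF values were the lowest of all. TEC cultures after 1 transplantation were higher than grafted HF cultures by 1.35 ± 0.33 (adjusted p = 0.168; 1.40 without array 1 of YR219P5_RC) and after 2 by 1.22 ± 0.33 (adjusted p = 0.118; 1.28 without it). Neither difference passed. In these comparisons limma called 0 of the 36 genes, against 0.0718% and 0.0457% of all probe sets. Unadjusted p was under 0.05 for 8 genes (22.2% against 17%) and 13 genes (36.1% against 21%). Values did not overlap for 14 and 8 genes, against 25.5% and 24.6% of all probe sets. Both comparisons use the same HF cultures.

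Itgb5 was at 8.88 and 7.55 in ungrafted and at 7.98 and 8.49 in grafted HF cultures, below every grafted TEC culture. The differences were 1.32 ± 0.40 (adjusted p = 0.192) and 1.46 ± 0.40 (adjusted p = 0.12), or 1.39 and 1.53 without array 1 of YR219P5_RC. Parvb, at 5.44 and 5.27 in grafted HF cultures, was lower there than in every TEC culture (2.02 ± 0.65 and 1.64 ± 0.65, adjusted p = 0.202 and 0.183; 2.01 and 1.63 without that array). Itga6 was at 11.50, 11.85, 11.55 and 11.97 after 2 transplantations against 11.01 and 11.41 in grafted HF cultures (0.51 ± 0.16, adjusted p = 0.137; 0.56 without that array and 0.31 without the whole culture YR219P5_RC). The median of all probe sets was -0.11 in both comparisons, so these genes lay on the other side of it.

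Donor age was compared over the 12 TEC cultures in a fit with terms for the number of transplantations. Cultures of 4-month donors (4) and of E16 donors (5) did not differ past the threshold in any of the 36 genes, where limma called 14 probe sets (0.0914%), and unadjusted p was under 0.05 for 9 genes (25%, against 11.1% of all). Values did not overlap for 2 genes, Itga1 and Itgb7, against 2.24% of all. Itgb5 was at 9.48, 9.96, 9.84, 9.75 and 9.92 in E16 cultures and at 7.95, 8.53, 9.16 and 9.56 in 4-month ones. Adjusted for state it was lower at 4 months by 0.78 ± 0.18 (log2 difference -0.78, adjusted p = 0.176). Itgb7, a beta subunit best known from lymphocytes, was at 6.13, 6.44, 6.53, 6.32 and 7.18 at E16 and at 4.79, 5.47, 5.98 and 5.50 at 4 months, without overlap (-0.96 ± 0.22, adjusted p = 0.184). Parva was at 9.11, 8.65, 8.96, 8.62 and 8.72 and then at 9.73, 9.38, 8.92 and 9.25 (0.38 ± 0.12, adjusted p = 0.302). Cd151 differed by 0.28 ± 0.12 (adjusted p = 0.415), and 2 of the 4 ungrafted TEC cultures came from 4-month donors against 1 of 4 in each grafted group.

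The wider pathway was described with lists of genes outside the pattern. Of 40 further adhesion adaptors 32 were measured. Nedd9, a scaffold that passes integrin signals through focal adhesion kinase, was the only call of the 32 between ungrafted TEC and HF cultures (-3.14 ± 0.57, adjusted p = 0.0174), where 1.55% of all probe sets were called. After the second transplantation, where 3.86% of all were called, 2 of the 32 rose, Nedd9 (2.04 ± 0.46, adjusted p = 0.0308) and Kank1, which links talin to the cell cortex (0.63 ± 0.16, adjusted p = 0.0408), and 1 fell, the integrin regulator Itgb1bp1 (-0.47 ± 0.12, adjusted p = 0.04). Nedd9 had a mean of 5.62 ± 0.88 (SD, n = 4) in ungrafted TEC cultures, 7.66 ± 0.79 (n = 4) after the second transplantation and 8.76 ± 0.75 (n = 2) in ungrafted HF cultures.

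Of 27 tetraspanins and other partners of integrins or laminin 24 were measured, with 2 called before grafting, 1 after the first and 3 after the second transplantation (1.55%, 0.516% and 3.86% of all probe sets). Slc3a2, the heavy chain of the CD98 amino acid transporter that binds beta integrins, rose by 0.65 ± 0.09 after the first (adjusted p = 0.0125) and by 0.74 ± 0.09 after the second transplantation (adjusted p = 0.00324). It was lower in TEC than in HF cultures before grafting (-0.53 ± 0.11, adjusted p = 0.0393), while the tetraspanin Tspan4 was higher (1.19 ± 0.26, adjusted p = 0.0399). After the second transplantation the tetraspanin Cd63 fell by 0.97 (SE 0.18; adjusted p = 0.0156) and the receptor Egfr rose by 0.60 (SE 0.14; adjusted p = 0.0351). Pooling the grafted cultures added a decrease of Cd44, a hyaluronan receptor, by 0.43 (adjusted p = 0.0463). Of 35 other basement membrane and integrin ligand genes 22 were measured, and in the planned comparisons the only call was Pxdn, which encodes a peroxidase that crosslinks collagen IV, lower after the second transplantation (-0.99 ± 0.20, adjusted p = 0.0189). Its group means of 4.61 and 3.62 were not shown to be above background. The pooled comparison added Ccn2, a matricellular integrin ligand, which rose by 1.52 ± 0.39 (adjusted p = 0.0425). The median differences of the 3 lists after the second transplantation were 0.02, -0.02 and -0.01, against 0.01 over all probe sets. No gene of these lists was called between the grafted TEC groups, in HF cultures, between grafted TEC and grafted HF cultures, for the interaction or for age.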

How the data were processed

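The deposited values are log2 probe set signals. Per the submitters' processing notes, the authors used RMA and Affymetrix Expression Console. Versions and annotation are not given in the sources used here. The values ran from 1.53 to 14.03, from which the log base was taken. Of 29215 probe sets, 15316 had 1 symbol, 317 several and 13582 none; all 15316 were tested, with no filter on level. Entrez identifiers of 15284 of these, and of all 36 genes described, were found in the RefSeq table.

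The 2 arrays of each culture were averaged. Differences were fitted with limma 3.58.1 (R 4.3.3; lmFit, eBayes) on 16 culture means with 1 coefficient per group. Adjusted p-values are Benjamini-Hochberg over 15316 probe sets per comparison, with a threshold of 0.05, and an unadjusted p under 0.05 is named as such. Errors of differences are SE. The fit was tested on simulated data, with independent normal values and 200 changed probe sets. At a log2 change of 1 it recovered 79% of these between ungrafted TEC and HF cultures. It recovered 80% for TEC cultures after the first transplantation and 70% for HF cultures after grafting. At a log2 change of 2 the shares were 95%, 97% and 95%. Real values need not be independent or normal. The genes and lists were chosen with earlier results of these data known. The text describes genes past the threshold, a fixed panel (every value of which is plotted), the 3 genes with the smallest p in comparisons without a call, and up to 4 called genes of each list. An array has no count depth: the number of cultures limits precision. The alternatives tried were other normalizations, filters and gene averaging, arrays as the unit, fits of the compared cultures, donor stage, clonal cultures and leaving out cultures.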

Additional observations from a re-analysis of the deposited data

Results flagged for a closer look

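In 108 tests of a gene within a group of 4 cultures, 4 had an extreme culture whose gap to its neighbour, as a share of the range, exceeded Dixon's 95% critical value. Chance gives about 1 in 20. Fermt1 was lowest in Clone_347 after the second transplantation (5.75, next 6.99). This value averages arrays that differed by 1.12, the largest gap between arrays of a culture for any of the 36 genes. Itga5 was highest in Clone_218 after the first transplantation (7.35, next 6.64). Itga11 was highest in Clone_907 after the first transplantation (4.61; next 4.39), at a low signal. Itgb8 was lowest in PRP4mo_Cl09 among ungrafted TEC cultures (3.89; next 4.35), also at a low signal.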

How the results depend on the processing

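Centring array medians, quantile normalization, requiring a mean of 5 or more, averaging the probe sets of a gene and leaving out array 1 of YR219P5_RC left every count of called members as reported. With single arrays fitted and culture as a random block, which raises the residual degrees of freedom, the counts were 6 (TEC against HF before grafting), 9 and 7 (TEC after 1 and 2 transplantations), 1 (HF, Lamc1), 3 and 8 (TEC after 1 and 2 against grafted HF), 1 (interaction, Lamc1), 10 (pooled grafted TEC) and 4 (age). With a replicate block added they were 6, 6, 7, 0, 3, 8, 1, 10 and 4. The array numbers share only a number: over 120 culture pairs, the differences between arrays 1 and 2 correlated at -0.635 to 0.574, over 0.1 in 23. Fitting only the compared cultures called 2 members between TEC and HF before grafting (Col7a1, Itgb8) and 3 in the pooled grafted comparison (Cd151, Itgb6, Parvb). Donor stage as a term, which sets the tissue differences at E16, called 1 before grafting (Itgb7), 2 and 3 for TEC after 1 and 2 transplantations against grafted HF, and 2 in the pooled comparison (Cd151, Parva). Clonal cultures alone called 0 after the second transplantation and 0 in the pooled comparison, with fewer cultures, and turned Itga2 in HF cultures from -1.18 to 0.0697.

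Leaving out each culture in turn gave 0 to 1 called members between TEC and HF before grafting (Lamc1 without PRE16cl11_VII, Itgb8 without Clone_287 or Clone_347), 0 to 3 after the second transplantation (3 without PRE16cl11_VII, 2 without either ungrafted HF culture, 0 without PRP4mo_bulk or PRP4mo_Cl09, and without Clone_347 1, Itgb8 in place of Cd151), 0 to 1 against grafted HF (Lama5 without Clone_287) and 0 to 5 in the pooled comparison (5 without PRE16cl11_VII, 3 without Clone_347 or either ungrafted HF culture, 0 without PRP4mo_bulk, where Cd151 had an adjusted p of 0.0695). The causes were not tested. HF groups of 2 cultures and signals near background limit the precision.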

Other observations

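A further probe set, listed for both Aif1l and Lamc3, cannot be assigned to either gene. Its group means were 8.01 in TEC cultures before grafting, 6.95 after the first and 7.05 after the second transplantation, 5.85 in HF cultures before and 6.22 after grafting. The probe set of Lamc3 alone had means of 4.55, 4.63, 4.59, 4.81 and 4.93 in the same order.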
